A study of Sus scrofa with 59 samples.

Results

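The proteasome genes on a porcine expression array were followed in a back muscle, longissimus dorsi, from 59 pigs. They were taken as all genes whose platform symbol starts with PSMA, PSMB, PSMC, PSMD, PSME, PSMF or PSMG, with the probe set of the highest mean standing for each gene. This gave 40 genes from 46 probe sets, out of 6765 genes that a probe set names by 1 symbol, and all 40 were among the 4928 genes bright enough to be tested. The rule uses gene names only and no measured pattern. By role they comprise 7 alpha subunits and 7 constitutive beta subunits of the 20S core, 5 ATPase and 10 non-ATPase subunits of the 19S regulatory particle, 4 assembly chaperones, 3 other activators or inhibitors and 4 immunoproteasome genes (PSMB8, PSMB10, PSME1 and PSME2). PSMB9, the other immunoproteasome core subunit, and PSMC4 matched no probe set with 1 symbol and were not analysed here.

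All pigs belonged to a single group. They were LD/LW x Duroc cross animals of 170 days, reared on the same farm with free access to feed, and muscle was frozen at slaughter and read on 1 array per pig. The labels name no treatment, sex or batch for a pig, and the carcass and meat quality traits recorded in the study were not analysed here. The comparisons are therefore across pigs: how each gene varied, which genes varied together, and which followed scores built from other genes. Pigs are called by the number in their sample title. Because nothing repeats a pig, the p-values set each slope or correlation against the spread between these 59 arrays. Muscle contractile and energy genes were bright everywhere, with CKM between 14.53 and 14.70, MYLPF between 14.59 and 14.77 and TNNC2 between 14.68 and 14.85 on the log2 scale. No pair of arrays was identical, and correlations between arrays ran from 0.969 to 0.995.

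The proteasome is the protease that degrades ubiquitin-tagged proteins, and in muscle it carries out much of the turnover of contractile proteins. Its 20S core is a stack of alpha rings, which gate the entrance, around beta rings, which hold the cutting sites, and the 19S particle recognises, unfolds and feeds in the substrates. Interferon signalling and leukocytes are known for an alternative form, the immunoproteasome, in which PSMB8 takes the place of PSMB5, PSMB9 that of PSMB6 and PSMB10 that of PSMB7, and to which the PA28 cap of PSME1 and PSME2 can bind. Peptides that this form cuts are carried by the TAP transporter to MHC class I molecules.

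The immunoproteasome genes differed most between pigs. Their median SD over the 59 pigs was 0.501 on the log2 scale (lowest 0.404, highest 0.766, 4 genes), beside 0.187 for the other 36 proteasome genes (0.0958 to 0.354) and 0.197 for all 4928 genes tested. PSMB8, which carries the chymotrypsin-like site of the immunoproteasome, ranged from 6.45 in pig 2 through a median of 7.11 to 9.46 in pig 16 (mean 7.37 ± 0.77, SD, n = 59). That SD lies at the 99th percentile of all genes tested. PSMB10, the trypsin-like subunit, ranged from 7.12 in pig 5 through 7.66 to 9.50 in pig 41 (7.78 ± 0.53). PSME1, the alpha chain of the PA28 cap, ranged from 8.40 through 8.90 to 10.33, and PSME2, its beta chain, from 8.71 through 9.08 to 10.54 (SD 0.47 and 0.40).

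The spread of these genes was one-sided. PSMB8 lay more than 1 log2 unit above its median in 10 pigs, PSMB10 in 5 pigs, PSME1 in 3 pigs and PSME2 in 3 pigs, and none of the 4 lay that far below its median in any pig. Among the other 36 genes, only PSMD10 went that far, in 1 pig. The high pigs were largely the same from gene to gene: pigs 11, 16, 33 and 66 were among the 6 highest for all 4 genes, and only 7 pigs (11, 16, 32, 33, 41, 63 and 66) were among the 6 highest for any. Pig 16 was highest for 3 of the 4, at 9.46 for PSMB8, 10.33 for PSME1 and 10.54 for PSME2, and pig 41 was highest for PSMB10. The array of pig 41 was also the most extreme in RNA quality, as measured by the 3′ minus 5′ difference of control probe sets. That difference was 2.76 in pig 41, beside 2.35 in the next highest and a median of 1.69.

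**Figure D1:**
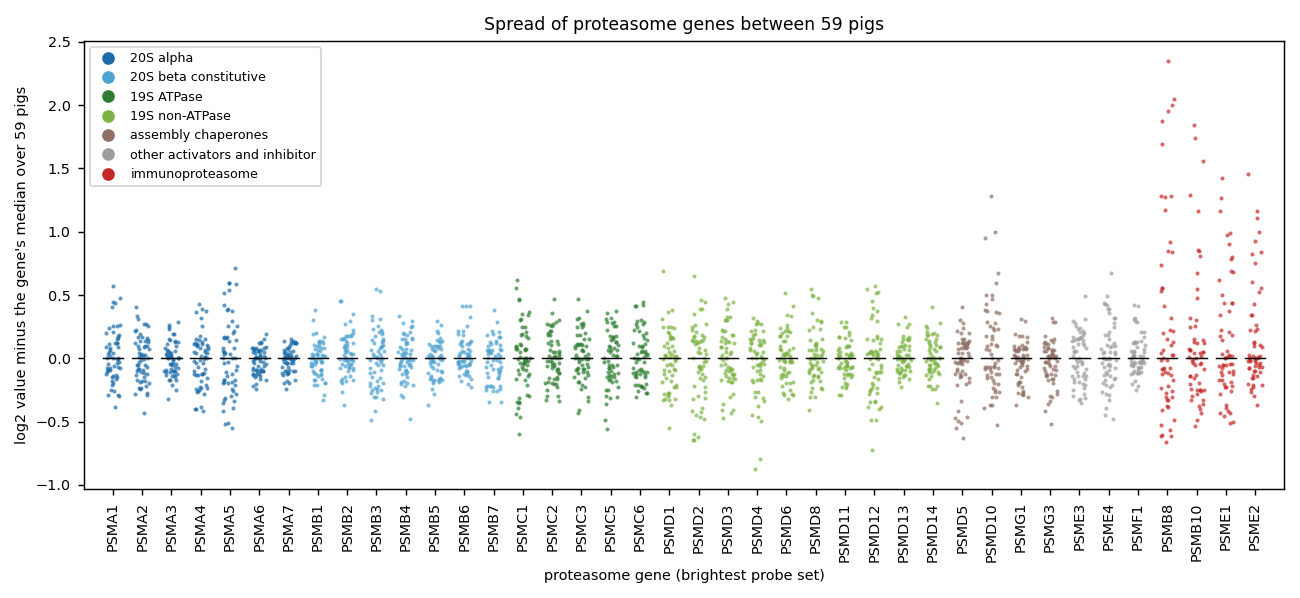
Each point is 1 of 59 pigs, plotted as the log2 value of a proteasome gene minus that gene's median (vertical axis), with genes along the horizontal axis coloured by role. The 4 immunoproteasome genes at the right have long upper tails, up to 3.01 log2 units between the lowest and the highest pig for PSMB8, while PSMA7 spans 0.40.

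The constitutive subunits that the immunoproteasome subunits replace stayed within narrow limits. PSMB5, the constitutive chymotrypsin-like subunit, ranged from 11.23 through 11.60 to 11.89 (SD 0.14, n = 59). PSMB6, the caspase-like subunit, ranged from 11.23 through 11.46 to 11.87 (SD 0.15), and PSMB7, the trypsin-like subunit, from 11.21 through 11.56 to 11.94 (SD 0.16). In pig 16, the highest for PSMB8, PSMB5 read 11.44 and PSMB7 read 11.33, both inside the range of the other pigs. The smallest SDs of all proteasome genes were those of the alpha subunits PSMA7 (0.0958, from 12.66 to 13.06) and PSMA6 (0.0986, from 12.13 to 12.56) and of PSMD13, a subunit of the 19S lid (0.121, from 10.40 to 10.95). PSMD10, the 19S assembly chaperone also known as gankyrin, had the widest spread outside the immunoproteasome, from 7.19 through 7.72 to 9.00 in pig 36 (SD 0.35). Levels are compared here only within a gene, since probe sets differ in brightness for the same amount of RNA.

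The immunoproteasome genes also moved together more tightly than any other role. Across pigs the median Pearson r over their 6 pairs was 0.914 (jackknife SE 0.0229, from 0.848 for PSMB10 with PSME1 to 0.946 for PSME1 with PSME2). Over the 630 pairs of the other 36 genes the median was 0.452, and over all pairs of the 4928 genes tested it was 0.0062. Within the roles the medians were 0.522 for the alpha subunits (SE 0.0834), 0.494 for the constitutive beta subunits (SE 0.114), 0.523 for the ATPases (SE 0.0839), 0.616 for the non-ATPase subunits (SE 0.0565), 0.422 for the assembly chaperones (SE 0.0919) and 0.494 for the other activators and the inhibitor. All these values come from the same 59 arrays and are given as a description, without a test.

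Between core and regulatory particle the median r took different values for different roles paired, and these differences were not tested. Between constitutive beta and non-ATPase subunits it was 0.614 (70 pairs, jackknife SE 0.0709), close to the value within the non-ATPase subunits. Between alpha and non-ATPase subunits it was 0.490 (70 pairs, SE 0.0767). Against the ATPases it was 0.452 for the constitutive beta subunits (SE 0.0906) and 0.287 for the alpha subunits (SE 0.0934, 35 pairs each). Within the particles it was 0.537 between alpha and beta subunits and 0.564 between ATPase and non-ATPase subunits. The closest pair of all outside the immunoproteasome crossed particles: PSMA1, an alpha subunit, with PSMD12, a lid subunit, at r = 0.901. PSMC2, an ATPase of the base, with PSMD1, the large scaffold subunit of the base, stood at 0.884, and PSMA1 with PSMA5 at 0.882. At the other end, PSMC3 with PSMG3, an ATPase and a core assembly chaperone, had the lowest value among the 36 genes, -0.246. Among these 36 genes the assembly chaperones had low values against every other role. Their median r was 0.0548 to the ATPases and 0.227 to the non-ATPase subunits. It was 0.247 to the alpha subunits, 0.244 to the constitutive beta subunits and 0.107 to the other activators and the inhibitor. Single pairs differed widely, from -0.0773 to 0.673 with the non-ATPase subunits.

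Within each role the members differed in how far they followed the others. PSMD1 had the highest correlation to the mean of the other non-ATPase subunits (r = 0.895) and PSMD4, a ubiquitin receptor of the 19S particle, the lowest (0.482). PSMB1 led the constitutive beta subunits (0.875), with PSMB6 last at 0.399. Among the alpha subunits PSMA2 was first (0.824) and PSMA7 last (0.129). PSMA7 was also the least variable alpha subunit (SD 0.0958), while PSMA6, nearly as narrow (SD 0.0986), stood at 0.661. Whether the small spread of PSMA7 bears on its low r was not tested. PSMC1 (0.798) and PSMC6 (0.368) bounded the ATPases, PSMG1 (0.604) and PSMD10 (0.411) the assembly chaperones, and PSMF1 (0.614), an inhibitor known as PI31, and PSME3 (0.544), the nuclear PA28 gamma cap, the remaining role. In the immunoproteasome PSME2 was first (0.968) and PSMB10 last (0.884). The same few animals set many of the extremes of the constitutive genes: pig 5 was highest for 16 of the 36 and pig 47 lowest for 13.

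Between the immunoproteasome genes and the other 36 genes the median r was -0.135 (144 pairs, from -0.399 to 0.511). PSMA3, an alpha subunit, was an exception, singled out after its values were seen. It correlated at 0.397 with PSMB10, 0.458 with PSMB8, 0.464 with PSME1 and 0.511 with PSME2. Its own range was small, from 12.32 in pig 47 through 12.64 to 12.93 in pig 66, which is also one of the 4 pigs high for every immunoproteasome gene.

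**Figure D2:**
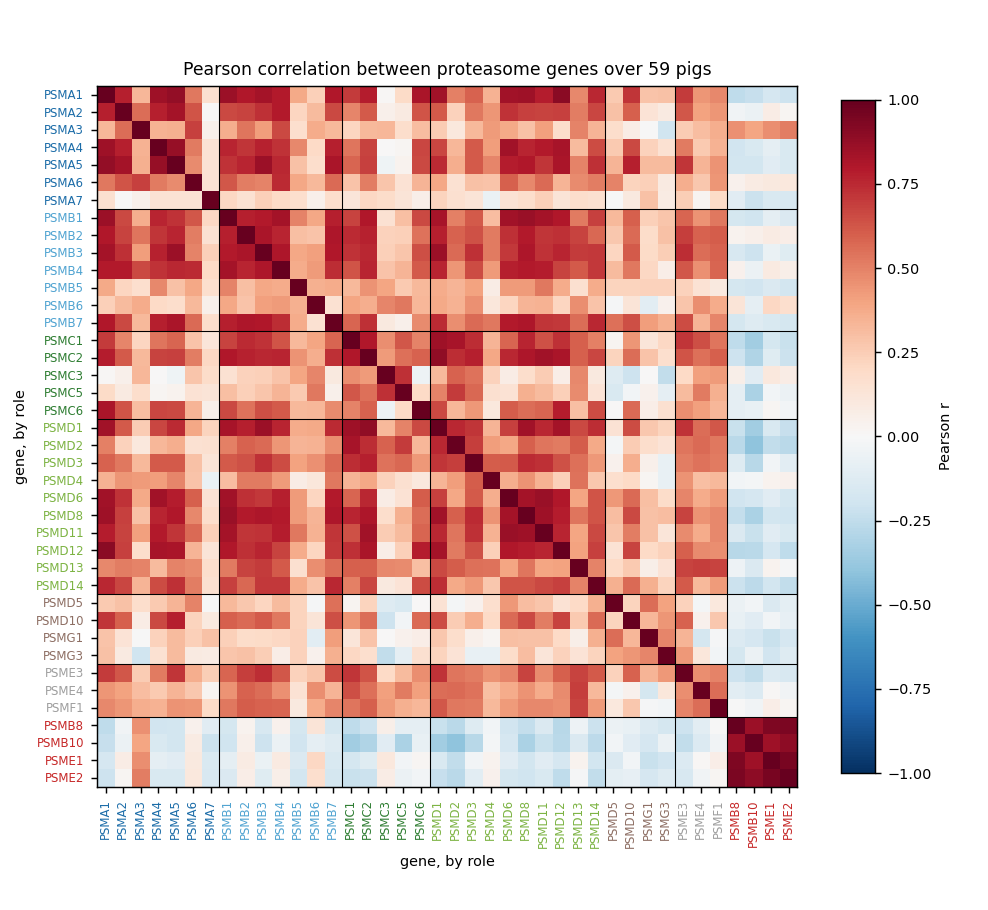
Pearson r over 59 pigs between every pair of the 40 proteasome genes, with genes on both axes ordered by role (black lines) and colour from -1 (blue) to 1 (red). The immunoproteasome block at the lower right is uniformly red (0.848 to 0.946), pale to blue against the other genes except PSMA3, and the other 36 genes form a broad red field with a median of 0.452 that is paler at the assembly chaperones.

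For 7 fixed pairs, among the catalytic subunits of both forms and between the PA28 chains, the correlation was tested. The tests were two-sided permutations with 100000 resamples and Benjamini-Hochberg adjustment over the 7. PSMB8 and PSMB10 rose and fell together (Pearson r = 0.856, Spearman rho = 0.749, both p = 1e-05, the smallest value these resamples can give, adjusted p = 3.5e-05), and r was 0.815 after leaving out the 2 most outlying pigs for PSMB8. PSME1 and PSME2 did so as well (r = 0.946, rho = 0.864, adjusted p = 3.5e-05, r = 0.930 without the 2 farthest pigs). In the RefSeq order of pig genes on assembly Sscrofa11.1, PSME2 and PSME1 lie on chromosome 7 with 1 gene between them, and on the same chromosome TAP2, PSMB8, TAP1 and PSMB9 follow each other directly. PSMB10 is not among these neighbours.

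The constitutive catalytic subunits were tied only weakly. PSMB5 correlated with PSMB7 (r = 0.373, permutation adjusted p = 0.00779, rho = 0.383, r = 0.371 without the 2 farthest pigs), though after quantile normalisation it was 0.267 and did not pass (adjusted p = 0.0701). For PSMB5 with PSMB6 r was 0.354 (permutation adjusted p = 0.00989), and rho was 0.325 (permutation adjusted p = 0.0214). Without the 2 pigs farthest in PSMB5, r was 0.215 and did not pass (adjusted p = 0.188). Pig 20 alone took r to 0.280 when left out. PSMB6 with PSMB7 did not pass (r = 0.151, rho = 0.0159, adjusted p = 0.296). Neither exchange pair showed an inverse relation that passed the test: r was -0.175 for PSMB5 with PSMB8 (rho = -0.193, adjusted p = 0.26) and -0.126 for PSMB7 with PSMB10 (rho = -0.103, adjusted p = 0.342).

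Which pigs had high immunoproteasome genes was then set against 6 scores, each the mean of the standardised values of other genes, scaled to an SD of 1: interferon response (16 genes), macrophage and leukocyte (13), heat shock (18), oxidative phosphorylation (30), immediate early (17) and atrophy ubiquitin ligases (3). For every probe set tested, limma gave the slope in log2 units per SD of the score, and a gene was called at an adjusted p under 0.05. In bulk muscle, fewer cells of a type and less RNA per cell cannot be told apart.

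The interferon response score picked out the immunoproteasome: all 4 of its genes were called higher with the score, and 0 of the other 36 proteasome genes were. Of all probe sets tested, 1.95% were called higher and 0.543% lower. PSMB8 had the steepest slope, 0.55 ± 0.07 (SE) log2 units per SD of the score (limma adjusted p = 1.88e-08). PSMB10 followed with 0.40 ± 0.05 (adjusted p = 2.53e-09), PSME1 with 0.32 ± 0.04 (adjusted p = 3.28e-07) and PSME2 with 0.30 ± 0.04 (adjusted p = 8.34e-09). All 4 calls held under each of the processing alternatives run for this score, and no single pig's removal ended one. The score includes GBP1, CXCL9 and IRF1, which type II interferon is known to induce, and IFIT3, ISG15 and MX1, known from type I interferon, and none of them is a proteasome gene.

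The relation had a visible exception among the highest scores. Pigs 63, 41, 16 and 11 had the highest interferon scores (2.49, 2.15, 2.09 and 1.99), with PSMB8 at 9.06, 8.80, 9.46 and 9.16. Pigs 60 and 14 came next (1.83 and 1.72), yet their PSMB8 read only 7.22 and 7.33, near the median of 7.11. Their PSMB10 was likewise modest, at 7.66 and 7.97. In these 2 pigs the macrophage and leukocyte score was below the average of the 59 pigs, at -0.13 and -0.24. It was 2.32 in pig 63, 1.90 in pig 16, 1.23 in pig 11 and 1.19 in pig 41. Other pigs went the other way. Pig 12 had a macrophage score above the average (0.42) and an interferon score of 1.15, with PSMB8 at only 7.13. Pig 15 had a macrophage score of -0.43 and an interferon score of 0.25, with PSMB8 at 8.28. Whether the macrophage score bears on the PSMB8 of pigs 60 and 14 was not tested. These pigs were picked out after their values were seen.

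**Figure D3:**
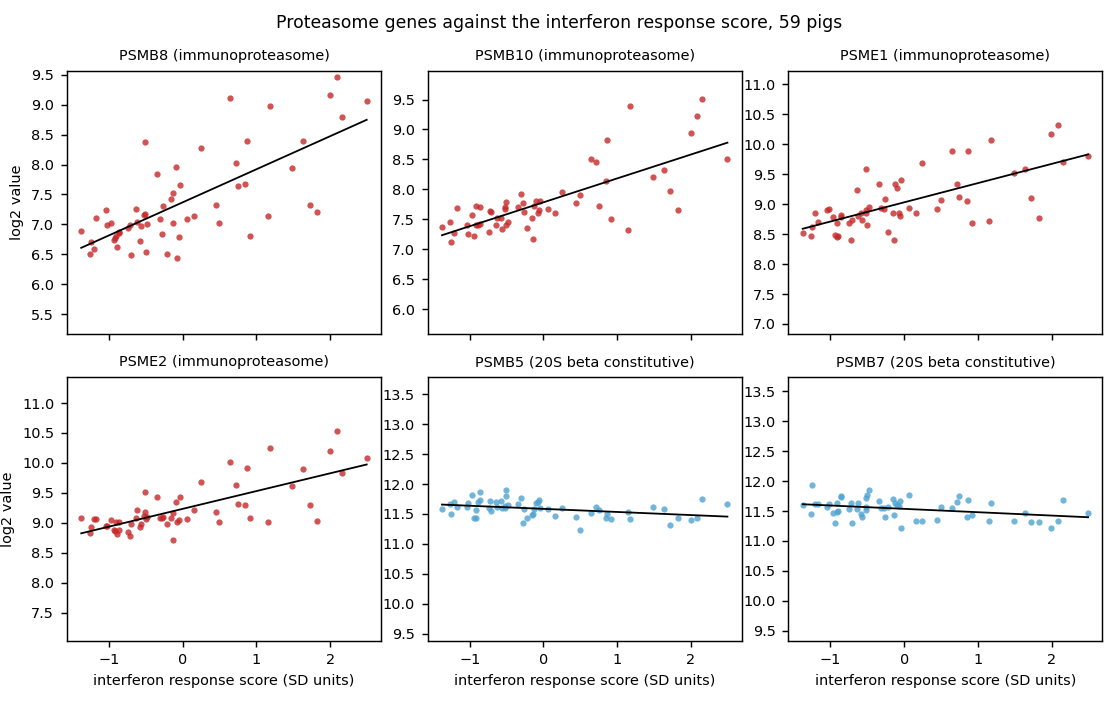
Log2 value (vertical axis, 4.4 units high in every panel) of 4 immunoproteasome genes (red) and of 2 constitutive partners (blue) against the interferon response score in SD units (horizontal axis), with 1 point per pig and the limma slope as a line. The red genes climb by 0.30 to 0.55 log2 units per SD, with the pigs near 1.8 SD lying under the lines, while PSMB5 and PSMB7 are close to level.

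The exchange partners differed in their slopes, tested on the difference itself within each array. PSMB8 minus PSMB5 had a slope of 0.60 ± 0.07 per SD of the interferon score and PSMB10 minus PSMB7 one of 0.46 ± 0.05 (two-sided permutation, p = 1e-05 for both, adjusted over 12 tests 4e-05). PSMB5 alone had a slope of -0.05 ± 0.02 (limma adjusted p = 0.0917), PSMB6 one of -0.02 ± 0.02 (adjusted p = 0.711) and PSMB7 one of -0.06 ± 0.02 (adjusted p = 0.121). The 95% intervals of these slopes ended at -0.09, -0.05 and -0.10. PSMB5 passed without the 2 pigs most extreme in the score (-0.07, limma adjusted p = 0.0103), and PSMB5 (-0.07, adjusted p = 0.0366) and PSMB7 (-0.09, adjusted p = 0.0241) passed with the macrophage score as a covariate.

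Lower with the interferon score were 4 genes of the 19S particle, by small amounts: the ATPase PSMC2 (slope -0.08 ± 0.02, limma adjusted p = 0.0281), the base scaffold PSMD1 (-0.09 ± 0.03, adjusted p = 0.0440), the lid subunit PSMD12 (-0.12 ± 0.03, adjusted p = 0.0409) and PSMD14 (-0.06 ± 0.02, adjusted p = 0.0482), the deubiquitinase of the lid. These calls were not stable. Re-centring the arrays on their medians left 4 higher and 0 lower, the 3′ minus 5′ difference of control probe sets as a covariate left 2 lower, the macrophage score as a covariate gave 17, and leaving out single pigs gave 0 to 9. PSMD14 was lost without any 1 of 34 pigs, PSMD1 of 19, PSMD12 of 11 and PSMC2 of 6.

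The same 4 immunoproteasome genes were higher with the macrophage and leukocyte score, whose genes include CD163, C1QC, TYROBP and CTSS. The r of each score gene to the mean of the others had a median of 0.89. CORO1A, also in the score, ran against the rest, at -0.32. The slope of PSMB8 was 0.57 ± 0.07 (limma adjusted p = 1.46e-09), that of PSME1 0.32 ± 0.04 (adjusted p = 1.66e-07), that of PSMB10 0.30 ± 0.06 (adjusted p = 7.76e-05) and that of PSME2 0.27 ± 0.04 (adjusted p = 3.53e-07). Of all probe sets tested, 6.15% were called higher and 1.13% lower. Of the other 36 proteasome genes 0 were called in either direction, with slopes from -0.03 to 0.09. The slope differences again separated the partners, at 0.57 ± 0.07 for PSMB8 minus PSMB5 (permutation adjusted p = 4e-05) and 0.30 ± 0.07 for PSMB10 minus PSMB7 (adjusted p = 0.00012).

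The interferon and macrophage scores were themselves correlated (r = 0.576 over the 59 pigs), so each was also fitted beside the other. With the macrophage score in the fit, the interferon slopes were 0.34 for PSMB10 (limma adjusted p = 5.33e-05), 0.34 for PSMB8 (adjusted p = 0.00278), 0.21 for PSME2 (adjusted p = 0.00067) and 0.21 for PSME1 (adjusted p = 0.0103), all still called. With the interferon score in the fit, the macrophage slopes stayed called for PSMB8 (0.37, adjusted p = 0.00011), PSME1 (0.20, adjusted p = 0.00377) and PSME2 (0.15, adjusted p = 0.00994), and PSMB10 did not pass (0.11, adjusted p = 0.198). The assembly chaperone PSMD10 was called in that fit (0.16, limma adjusted p = 0.0363), having missed the threshold without it (0.09, adjusted p = 0.274). Whether the PSMB10 slope differs from that of PSMB8 in that fit was not tested.

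Markers of other cells moved with the interferon score only in part. Of 13 macrophage and leukocyte markers bright enough to be tested, 9 were called higher and 0 lower with it, beside 1.95% and 0.543% of probe sets tested. C1QC (slope 0.38) and CD53 (0.36) were among the 9. Not called were MRC1 (0.19), CD163 (0.14), FCER1G (0.13) and CORO1A (-0.03). Among lymphocyte markers CCL5 alone was bright enough, and it was higher (slope 0.18, limma adjusted p = 0.00133), while CD2, CD3D, CD3E, CD3G, CD4, CD8A, CD8B, LCK and CD79B fell under the brightness filter, with medians from 4.05 for CD4 to 5.89 for CD3D. Of 8 endothelial, 4 adipocyte, 3 fibroblast, 4 smooth muscle and 6 skeletal muscle markers tested, 0 were called in either direction. Leukocyte content was not measured, and its part in the immunoproteasome slopes was not tested. The fit with the macrophage score given above cannot set it apart, since the 2 scores correlate with each other (r = 0.576).

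Some antigen presentation genes outside the proteasome prefixes followed the same scores. Of 7 MHC class I genes tested, 4 were called higher with the interferon score, beside 1.95% of probe sets tested. They were the transporter subunit TAP1 (slope 0.39 ± 0.06, limma adjusted p = 1.08e-05), its loading partner TAPBP (0.33 ± 0.04, adjusted p = 5.34e-09) and the class I heavy chains SLA-2 (0.25 ± 0.05) and SLA-3 (0.24 ± 0.05). Not called were the class I light chain B2M (-0.0022, adjusted p = 0.935) and the chaperones CALR (0.0028, adjusted p = 0.974) and PDIA3 (0.07, adjusted p = 0.218). With the macrophage score 6 of the 7 were higher, all but B2M, beside 6.15% of probe sets tested. TAP1 was again steepest, at 0.44. TAP1 itself ranged from 7.85 through 8.67 to 10.74. The list holds 11 genes in all, of which 7 had a probe set with 1 symbol.

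**Figure D4:**
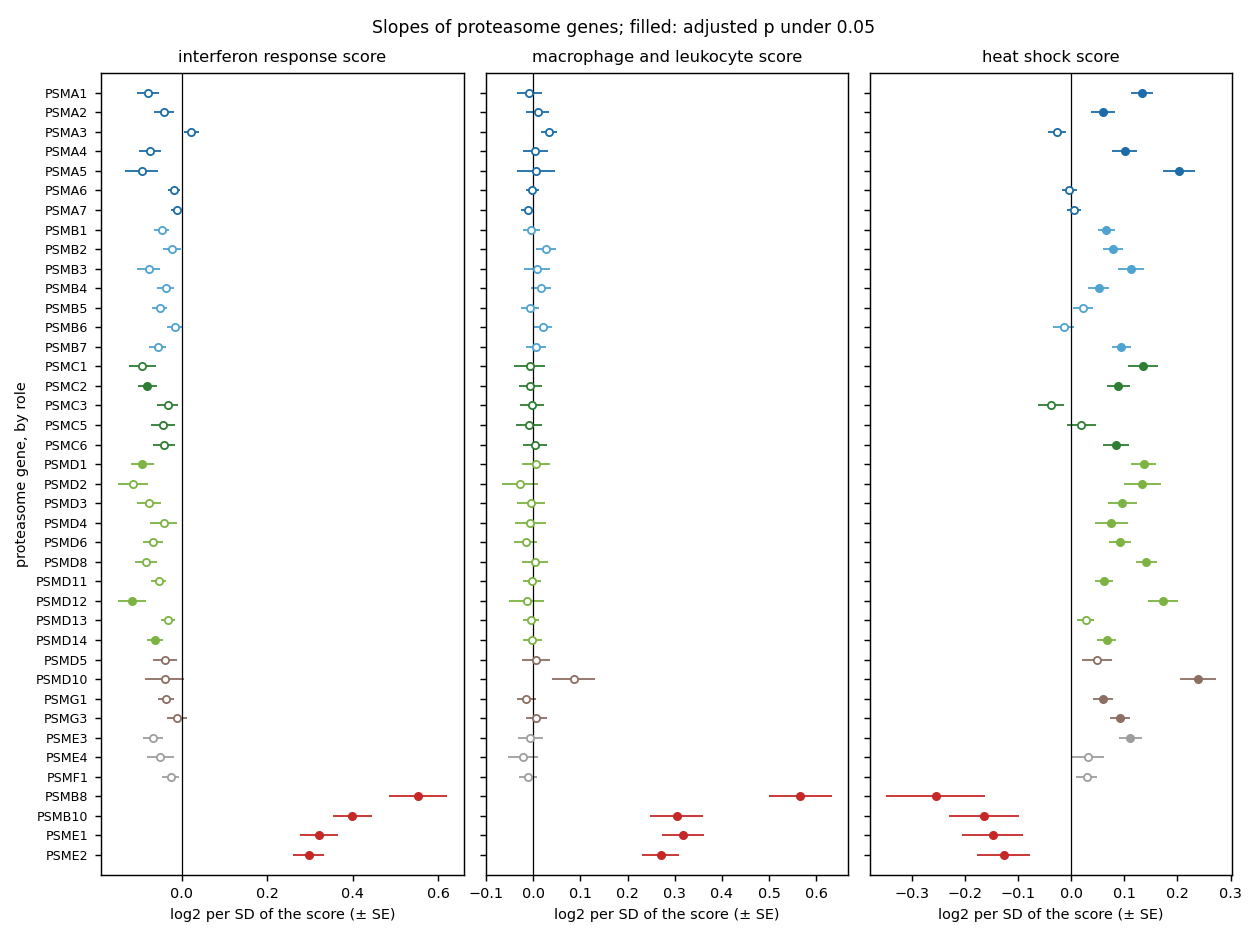
Slope of each of the 40 proteasome genes (rows, coloured by role) in log2 units per SD of the interferon, macrophage and heat shock scores (horizontal axes, with a scale of their own in each panel), with bars of 1 SE and filled points where the limma adjusted p was under 0.05. The 4 immunoproteasome genes at the bottom stand to the right in the first and second panels and to the left in the third, where filled points to the right of 0 mark the 25 of the other 36 genes called higher.

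Constitutive subunits followed a different score. With the heat shock score, built from chaperone genes such as HSPH1, DNAJA1, BAG3 and HSPB1, 25 of the other 36 proteasome genes were called higher and 0 lower, and their median slope was 0.08 against -0.0050 over all genes tested. This score was widely shared: 23.4% of all probe sets tested were called higher with it and 22.4% lower. By role the calls were 4 of 7 alpha subunits, 5 of 7 constitutive beta subunits, 3 of 5 ATPases, 9 of 10 non-ATPase subunits, 3 of 4 assembly chaperones and 1 of 3 in the remaining role. Since these genes are correlated with one another, the 25 are not 25 independent results.

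The clearest of them came from different parts of the particle. PSMD10, the assembly chaperone, had a slope of 0.24 ± 0.03 (limma adjusted p = 5.57e-08), and pig 36, with the highest heat shock score (2.82), also had the highest PSMD10. PSMD8, a lid subunit, had 0.14 ± 0.02 (adjusted p = 6.54e-08), and PSMA5, of the alpha ring, 0.20 ± 0.03 (adjusted p = 1.02e-07). PSMA1 (0.13 ± 0.02), PSMD12 (0.17 ± 0.03) and PSMD1 (0.14 ± 0.02) followed, with adjusted p of 5.14e-07, 1.43e-06 and 3.06e-06. PSMA5 ranged from 11.00 through 11.55 to 12.27 and PSMD8 from 11.22 through 11.63 to 12.18, so the slopes are small beside the tails of the immunoproteasome genes.

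Not called were 11 of the 36, among them 2 of the catalytic subunits. PSMB6 had a slope of -0.01 (95% interval -0.05 to 0.02, limma adjusted p = 0.58) and PSMB5 one of 0.02 (-0.01 to 0.06, adjusted p = 0.318), while PSMB7 was called at 0.09 ± 0.02 (adjusted p = 1.15e-05). For PSMA6 and PSMA7 the intervals were -0.03 to 0.02 and -0.02 to 0.03. PSMA3 (-0.03) and PSMC3 (-0.04) had slopes below 0 that did not pass. The others were PSMC5, PSMD5, PSMD13, PSME4 and PSMF1.

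The heat shock score was close to the main axis of the whole array. Taken over 5991 tested probe sets outside all lists, the leading principal component held 17.2% of the variance, and the score correlated with it at -0.846. With that component in the fit, 0 of the 36 genes were called higher and 3 were called lower, and the slopes of PSMD10, PSMA5, PSMA1 and PSMD12 turned to -0.07, -0.06, -0.03 and -0.02 (limma adjusted p from 0.335 to 0.776). For these 36 genes the slopes on heat shock and on this common axis therefore cannot be told apart in these arrays. The heat shock score correlated at -0.223 with the 3′ minus 5′ difference of control probe sets, a measure of RNA quality. With that difference in the fit 26 of the 29 calls in both directions remained.

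**Figure D5:**
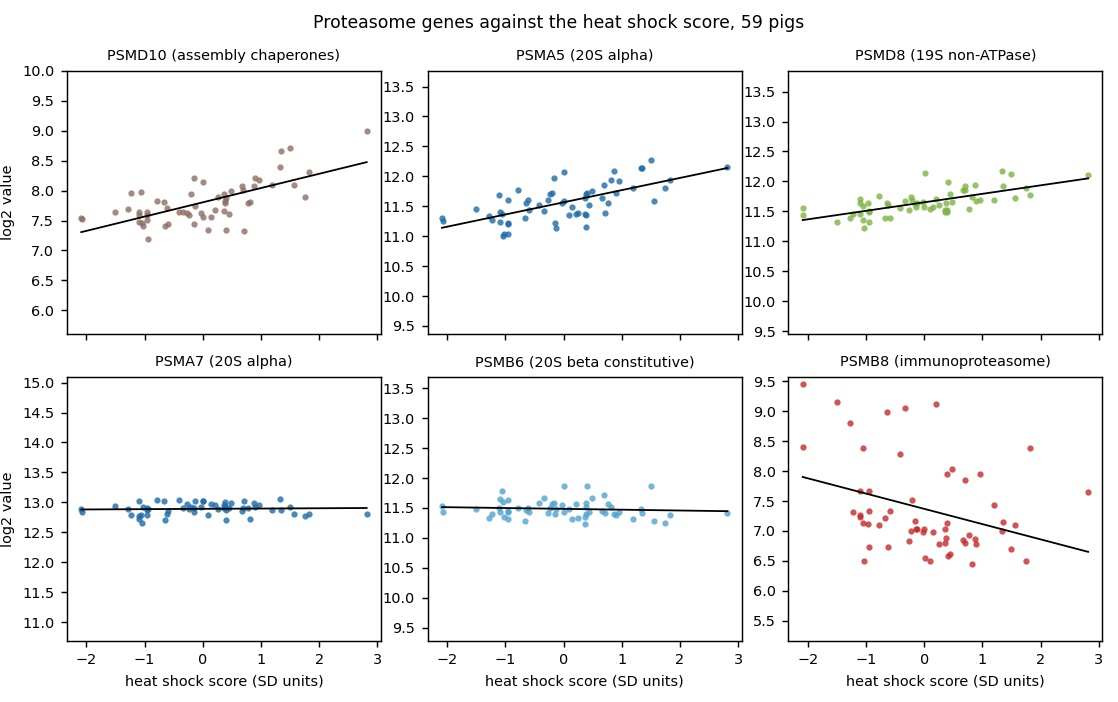
Log2 value (vertical axis, 4.4 units high in every panel) of 6 proteasome genes against the heat shock score in SD units (horizontal axis), with 1 point per pig and the limma slope as a line. PSMD10, PSMA5 and PSMD8 climb by 0.24, 0.20 and 0.14 log2 units per SD, PSMA7 and PSMB6 are close to level, and PSMB8 (red) declines by a slope of -0.25 with wide scatter.

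The immunoproteasome genes went the other way with heat shock, but less firmly. All 4 were called lower, beside 22.4% of probe sets tested. PSMB8 had a slope of -0.25 ± 0.09 (limma adjusted p = 0.0209) and PSMB10 one of -0.16 ± 0.07 (adjusted p = 0.0347). PSME1 had -0.15 ± 0.06 (adjusted p = 0.0303) and PSME2 -0.13 ± 0.05 (adjusted p = 0.0313). As these genes are correlated with one another (median r 0.914), the 4 are not 4 independent results. The difference of slopes passed for both exchange pairs, at -0.28 ± 0.10 for PSMB8 minus PSMB5 (permutation adjusted p = 0.0143) and -0.26 ± 0.07 for PSMB10 minus PSMB7 (adjusted p = 0.000864). Without pig 16 the first was -0.205 and no longer passed (permutation adjusted p = 0.0743). The 7 pigs high for immunoproteasome genes did not share a heat shock score: it was -2.08 in pig 16, -1.50 in pig 11, -1.28 in pig 41, -0.65 in pig 33, -0.34 in pig 63, 0.21 in pig 66 and 1.82 in pig 32. Without pig 11 or pig 16, 0 of the 4 were called, without pig 30 only 1 and without pig 41 only 2. With the interferon score in the fit, an alternative added after seeing the data, 0 of the 4 passed (adjusted p from 0.215 to 0.347). Re-centring the arrays on their medians gave 25 higher and 1 lower in place of 25 and 4. With the leading principal component in the fit the slopes were larger, from -0.25 for PSME2 to -0.45 for PSMB8, with larger errors, and PSME1 alone was called (-0.34 ± 0.10, limma adjusted p = 0.0252).

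Genes that deliver substrates to the proteasome or assist it were few on this array, 9 of 30 listed. With heat shock 4 of the 9 were called higher and 0 lower, beside 23.4% and 22.4% of probe sets tested. The 4 were AKIRIN2, which takes proteasomes into the nucleus (slope 0.16 ± 0.03, limma adjusted p = 1.79e-06), the polyubiquitin gene UBB (0.05 ± 0.01, adjusted p = 8.52e-05), NSFL1C (0.16 ± 0.04, adjusted p = 0.000189), a cofactor of the unfoldase VCP, and VCP itself (0.08 ± 0.02, adjusted p = 0.000297). NSFL1C and VCP were lower with the interferon score (-0.15 and -0.06, limma adjusted p = 0.0131 and 0.0414), as were the 4 subunits of the 19S particle. The 19S calls were not stable, as given above, and no alternative fit was run for NSFL1C or VCP. Of the 7 MHC class I genes tested, TAP1 (-0.24), SLA-2 (-0.20) and TAPBP (-0.16) were called lower with heat shock, beside 22.4% of probe sets tested. CALR, a chaperone of the endoplasmic reticulum, was called higher (0.12), beside 23.4%. The genes of both lists were not refitted with the leading principal component, with which 0 of the 36 proteasome genes were called higher.

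The remaining scores held little for the proteasome. With the oxidative phosphorylation score 0 of the 40 genes were called in limma, beside 6.96% of probe sets tested called higher and 2.81% lower. Among the 40, 1 gene, PSMD13, had an unadjusted limma p under 0.05 (slope 0.03 ± 0.02). With the immediate early score, built from FOS, EGR1, ATF3 and others, 4 were called higher (PSMA5 0.12 ± 0.04, PSMD10 0.13 ± 0.04, PSMD8 0.08 ± 0.03 and PSMA1 0.07 ± 0.03) and 0 lower, beside 7.77% and 8.14% of probe sets tested. That count was 0 without pig 36 or without pig 37, the 2 highest in the score, and 7 after re-centring.

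The atrophy ubiquitin ligase score is the weakest measure of the 6. It holds FBXO32, FBXO31 and FBXO21, which hardly moved together (r of each to the mean of the others from -0.11 to 0.29), and TRIM63 is not among them. PSME4, the PA200 cap, was called higher (slope 0.10 ± 0.03, limma adjusted p = 0.0262), the only call among the 40, beside 2.68% of probe sets tested higher and 5.6% lower. It was lost without pig 2, pig 4 or pig 36. PSME4 ranged from 10.03 in pig 47 through 10.51 to 11.19 in pig 4. Of the 9 ubiquitin and shuttling genes tested, 1 was called higher with this score and 0 lower: ZFAND5, known to stimulate the proteasome in wasting muscle (0.07 ± 0.01, limma adjusted p = 0.000397).

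For the 4 genes with more than 1 probe set the readings depend in part on which is used. The r between probe sets of a gene was 0.844 for PSMD1, 0.541 to 0.912 for the 3 of PSMC2, 0.440 to 0.690 for the 3 of PSMD11 and 0.505 for PSMF1. Each immunoproteasome gene rests on 1 probe set, and the tight correlation among the 4 is therefore one between different genes, not between readings of a single one.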

How the data were processed

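RNA of 59 muscles was hybridised to Affymetrix porcine arrays. The deposited values, taken here as log2, were made by the authors with GCRMA, per the submitters' processing notes. Its version and the log base are not given in the sources used here, and the values ran from 2.39 to 15.04. Array medians lay between 6.23 and 6.30, and precision depends on how many arrays there are, since arrays have no read depth.

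Of 24123 probe sets (124 controls), 10099 had 1 gene symbol in the platform annotation, 198 several and 13826 none; symbols of 9989 were updated by Entrez ID. That annotation can be old. The 12000 probe sets with a mean of at least 6.27, the median over probe sets, were tested. Slopes came from limma 3.58.1 (lmFit, eBayes; R 4.3.3) with Benjamini-Hochberg adjustment over all probe sets tested, two-sided, leaving out each score's own genes. Intervals of slopes are 95% intervals. Correlations and slope differences used permutation tests with 100000 resamples (Python 3.11.15, numpy 2.4.6). The scripts' tests were tried on simulated data. Pairs that need PSMB9 could not be formed, which left 7 fixed pairs.

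Genes named with values are the catalytic and immunoproteasome genes, the 3 highest and 3 lowest SDs, the highest and lowest correlation within each role, and for each score up to 6 calls per direction that kept an unadjusted p under 0.05 without the 2 most extreme pigs; others named were chosen after their values were seen. Members and gene lists were chosen with earlier results of these data known. Alternatives covered filter, centring, quantile normalisation, probe set choice, score construction, covariates and each pig left out.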

Additional observations from a re-analysis of the deposited data

How the results depend on the processing

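The count of proteasome genes higher with the interferon response score (4) and with the macrophage score (4) kept its size under the alternatives run, though with the interferon score as a covariate PSMD10 took the place of PSMB10 among the 4 of the macrophage score, and leaving out each pig gave 4 to 4 for interferon. Genes lower with the interferon score (4) became 0 after re-centring, 0 with the first principal component as a covariate, 2 with the 3′ minus 5′ difference, 17 with the macrophage score and 0 with the heat shock score, the last added after seeing the data, and 0 to 9 without single pigs. Genes higher with heat shock (25) became 0 with the first principal component, and 22 to 25 without single pigs. With that component the heat shock slopes reversed for PSMD10 (-0.0669), PSMA5 (-0.0596), PSMA1 (-0.0303) and PSMD12 (-0.0236), and the immediate early slopes for PSMA5 (-0.0079) and PSMA1 (-0.012). Genes lower with heat shock (4, all immunoproteasome) kept their number with that component, but only 1 was then an immunoproteasome gene, and became 1 after re-centring, 2 with the 3′ minus 5′ difference, 0 with the interferon score (added after seeing the data) and 0 to 4 without single pigs. Genes lower with oxidative phosphorylation (0) became 1 with the first principal component. Genes higher with the immediate early score (4) became 7 after re-centring, 0 without the 2 most extreme pigs, 0 with the first principal component, and 0 to 7 without single pigs (7 without pig 1, 4, 28, 33 or 56). For the atrophy ligases the count higher (1) became 0 without the 2 most extreme pigs, 0 with the macrophage score and 0 to 1 without single pigs, and the count lower (0) became 1 after quantile normalisation, 1 when a gene's probe sets were averaged, 1 with the first principal component and 10 with the first component of the score genes in place of their mean, where PSME4 reversed to -0.0054.

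The r of PSMB5 with PSMB6 was 0.215 without the 2 pigs most extreme in PSMB5 and 0.271 after quantile normalisation, which also took PSMB5 with PSMB7 to 0.267 (permutation adjusted p = 0.0701 for both pairs), and it ran from 0.280 to 0.411 without single pigs. Median r moved to 0.813 for the immunoproteasome with Spearman correlation and, with the first principal component removed, to 0.374 for the other 36 genes, 0.697 for the ATPases, 0.467 for the non-ATPase subunits and 0.222 for the assembly chaperones. The slope difference of PSMB8 and PSMB5 with heat shock ran from -0.325 to -0.205 without single pigs. The cause of these changes was not tested. No batch, sex or trait label was used, dim genes such as PSMB8 sit nearer the background than bright ones, and 1 array per pig leaves array error inside the spread between pigs. No paired analysis was possible because all pigs belong to 1 group.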
